A study of Homo sapiens with 12 samples.

Results

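The claudin and tight junction gene set held 9 named genes: the claudins CLDN1, CLDN3, CLDN4, CLDN7 and CLDN12, occludin (OCLN), the zonula occludens proteins TJP1 and TJP3, and the junctional adhesion molecule F11R. The genes were chosen with earlier results of these data known. On these arrays 8 of the 9 could be measured, out of 19775 genes tested. No probe set was listed for F11R in the annotation used, and F11R was not analysed here. The samples were RNA from PC9 cells, an EGFR-mutant non-small cell lung cancer line, hybridized to Affymetrix HG-U133 Plus 2.0 arrays. Stable lentiviral lines were compared with and without erlotinib, an inhibitor of the EGFR kinase. The 4 groups, with 3 arrays each, were the pre-miR-371 line in 2 µM erlotinib for 24 h, the pre-miR-371 line in DMSO, the GFP vector line in 2 µM erlotinib for 24 h and the GFP vector line in DMSO. All cells therefore carried a lentiviral construct, and the methods list a scrambled hairpin in a GFP plasmid as the control construct. Each construct was represented by 1 stable line, so the effect of the hairpin and a difference between these particular lines cannot be told apart. The methods describe replicates as biological, while the labels do not say whether the 3 arrays of a group came from separate cultures, so each p-value reflects spread among these arrays.

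Tight junctions seal the space between neighbouring epithelial cells near their apical side. Claudins are membrane proteins that form the strands of the junction and set which ions pass, occludin and F11R are further membrane components, and the zonula occludens proteins are scaffolds on the cytoplasmic face that tie the strands to actin. Loss of claudins and occludin is a familiar part of epithelial-mesenchymal transition, and repressors of the SNAI and ZEB families bind E-box sequences in several of these genes.

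The pre-miR-371 construct encodes a hairpin that yields a 5p and a 3p mature miRNA. Both are shown because they are what separates the lines by design, with the seed (bases 2 to 8) in capitals, as listed by RefSeq on GRCh38.p14 at chr19:53787680-53787699 and chr19:53787716-53787738, plus strand. The seeds differ, and the level of either miRNA was not analysed here.
hsa-miR-371a-5p: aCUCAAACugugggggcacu
hsa-miR-371a-3p: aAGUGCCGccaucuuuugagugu

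Values below are log2 intensities of the probe set with the highest mean of each gene, as normalized by the authors. Differences are erlotinib minus DMSO, or pre-miR-371 minus GFP vector, with the SE of the fit. A gene passed the test at a Benjamini-Hochberg adjusted p below 0.05 in limma over all 19775 genes, and was called when the change was also more than 1.5-fold. Fold sizes on arrays are compressed for dim probe sets, and a mean log2 value below 6 is named dim here. Bulk RNA does not separate a change in each cell from a change in which cells were present.

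Erlotinib raised a group of the tight junction genes in both lines. CLDN3, CLDN4 and TJP3 were called higher in the pre-miR-371 line, and these 3 and OCLN were called higher in the GFP vector line. Called higher were thus 3 of 8 genes in the pre-miR-371 line, where 12.6% of all genes were called higher, and 4 of 8 in the GFP vector line, where 14.1% were. All 8 genes had a mean log2 value of at least 6, as did 9650 of the 19775 genes. The shares over all genes thus include many dim genes, whose fold sizes are compressed. Without the fold limit, 5 of 8 passed as higher in the pre-miR-371 line and 6 of 8 in the GFP vector line, against 24.8% and 26.5% of all genes in these lines. No member passed as lower in either line. The median change of the 8 genes was 0.47 in the pre-miR-371 line and 0.51 in the GFP vector line, while the median over all genes was -0.03 and 0.00 in these lines. Because the genes were chosen with earlier results of these data known, these counts and medians describe the set and do not test it.

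**Figure D1:**
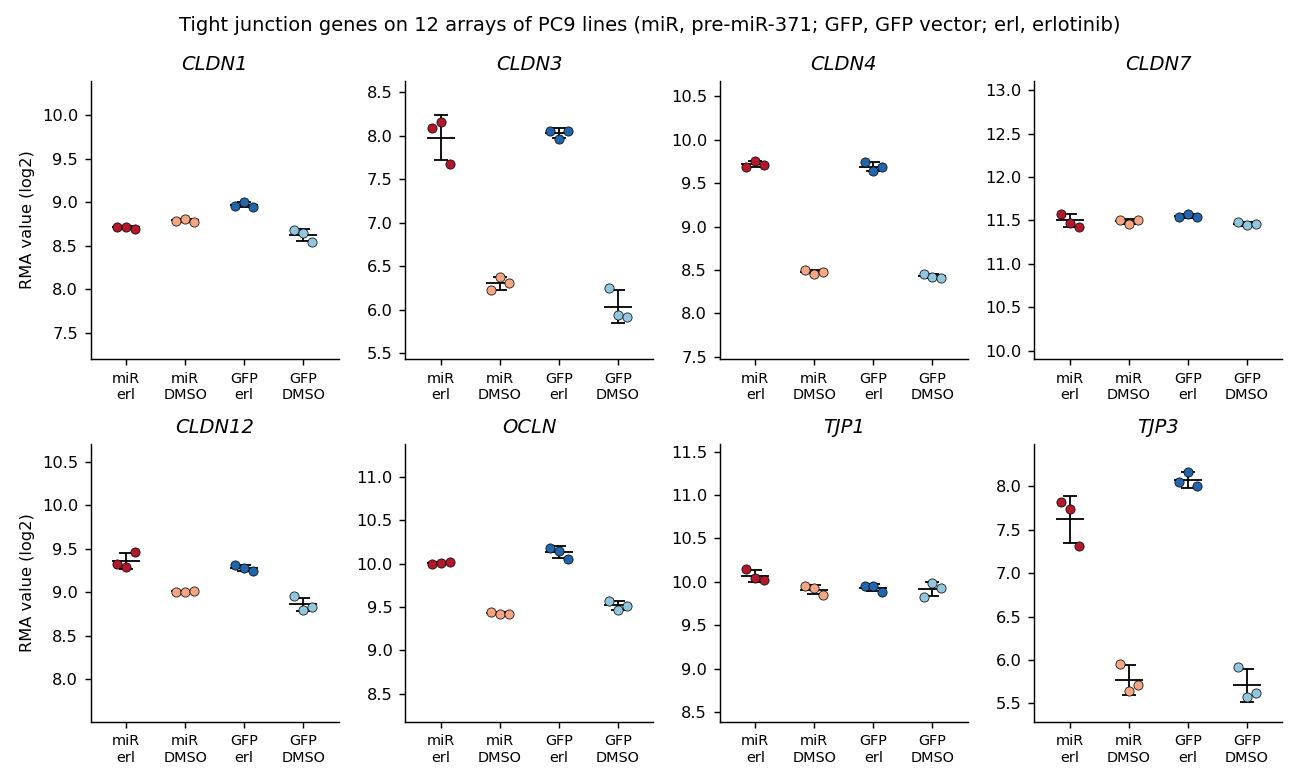
Log2 RMA value (vertical axes, each spanning the same range) of 8 tight junction genes on 12 arrays in 4 groups, with points for arrays and a bar with error for mean ± SD (n = 3). CLDN3, CLDN4, OCLN and TJP3 are higher on all erlotinib arrays of each line than on its DMSO arrays, CLDN7 is nearly level across groups, and CLDN1 is highest in the GFP vector line in erlotinib.

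CLDN4 encodes a claudin common to many epithelia and, with claudin-3, a receptor of the Clostridium perfringens enterotoxin. In the pre-miR-371 line it read 9.68, 9.75 and 9.71 in erlotinib, against 8.50, 8.45 and 8.48 in DMSO. Among GFP vector arrays it read 9.74, 9.64 and 9.68 in erlotinib, against 8.45, 8.42 and 8.41 in DMSO. The erlotinib arrays did not overlap the DMSO arrays in either line, and the arrays of a group lay within a narrow band. The difference was 1.24 ± 0.05 in the pre-miR-371 line (2.36-fold, adjusted p = 1.37e-09, limma) and 1.26 ± 0.05 in the GFP vector line (2.4-fold, adjusted p = 8.49e-10, limma). A second, dim probe set of CLDN4 (1569421_at, group means 3.82 to 4.17) changed by 0.14 in the pre-miR-371 line and -0.02 in the GFP vector line and passed in neither.

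CLDN3, a barrier-forming claudin, rose further on the log2 scale. In the pre-miR-371 line its values were 8.09, 8.16 and 7.68 in erlotinib, against 6.22, 6.37 and 6.31 in DMSO. In the GFP vector line they were 8.06, 7.96 and 8.06 in erlotinib, against 6.25, 5.94 and 5.91 in DMSO. The groups were well apart in both lines, and the third erlotinib array of the pre-miR-371 line was the lowest of the 6 treated arrays. The difference was 1.68 ± 0.12 in the pre-miR-371 line (3.2-fold, adjusted p = 1.79e-07, limma) and 1.99 ± 0.12 in the GFP vector line (3.98-fold, adjusted p = 2.84e-08, limma). The second CLDN3 probe set (203953_s_at) gave larger changes, 2.56 (5.91-fold) in the pre-miR-371 line and 3.12 (8.68-fold) in the GFP vector line, from DMSO means of 4.31 and 3.94 that were dim. The size of the CLDN3 change thus depended on the probe set, while its direction did not. The suffixes of both CLDN3 probe sets mark probes that can also match other transcripts, and the effect of this was not tested.

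CLDN3 and CLDN4 are neighbours on chromosome 7, with no annotated gene between them. ABHD11, which lies next to CLDN3 on its other side and encodes a mitochondrial hydrolase, rose by 0.78 ± 0.05 in the pre-miR-371 line and 0.69 ± 0.05 in the GFP vector line (adjusted p = 1.11e-07 and 2.48e-07, limma). METTL27, the next gene beyond CLDN4, is dim and rose by 0.36 in the pre-miR-371 line and 0.39 in the GFP vector line (adjusted p = 0.0286 and 0.0177, limma). TMEM270 and ELN, the next genes out, passed in neither line. The 4 measured genes from ABHD11 to METTL27 were therefore higher in erlotinib in both lines.

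The other claudins of the set showed smaller changes or none that passed. CLDN12, which lacks the PDZ-binding tail that couples most claudins to zonula occludens proteins, read 9.33, 9.29 and 9.46 in erlotinib, against 9.0, 9.0 and 9.02 in DMSO, among pre-miR-371 arrays. In GFP vector cells it read 9.31, 9.28 and 9.25 in erlotinib, against 8.96, 8.80 and 8.83 in DMSO. It rose in both lines without overlap of the arrays, by 0.35 ± 0.06 in the pre-miR-371 line (1.28-fold, adjusted p = 0.000377, limma) and 0.42 ± 0.06 in the GFP vector line (1.33-fold, adjusted p = 8.65e-05, limma), both below the fold limit. CLDN7, a claudin found along the lateral membrane as well as at the junction, had values of 11.43 to 11.58 in erlotinib and 11.46 to 11.51 in DMSO in the pre-miR-371 line. In the GFP vector line they were 11.54 to 11.57 in erlotinib and 11.45 to 11.48 in DMSO. Its difference was 0.01 (95% confidence interval -0.11 to 0.12) in the pre-miR-371 line and 0.08 (-0.03 to 0.20) in the GFP vector line, and passed in neither. The span of its 4 group means, 0.08, was the smallest of the 8 genes, against 2.37 for TJP3, which had the largest.

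CLDN1, the claudin without which the skin barrier of mice fails, was the member whose response differed between the lines. In the pre-miR-371 line it read 8.72, 8.72 and 8.69 in erlotinib, against 8.78, 8.81 and 8.77 in DMSO. In the GFP vector line it read 8.96, 9.0 and 8.95 in erlotinib, against 8.68, 8.65 and 8.54 in DMSO. The treated arrays thus lay just below the DMSO arrays in one line and above them in the other. The change of -0.07 ± 0.05 in the pre-miR-371 line did not pass (adjusted p = 0.288, limma), while CLDN1 rose by 0.35 ± 0.05 in the GFP vector line (1.27-fold, adjusted p = 0.000116, limma). A second CLDN1 probe set (218182_s_at, group means 5.94 to 6.14) gave -0.20 in the pre-miR-371 line and 0.08 in the GFP vector line, and passed in neither. Its suffix also marks probes that can match other transcripts, and the effect of this was not tested.

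Occludin, a tetraspan membrane protein of the MARVEL family, rose by nearly the same amount in both lines. It read 10.00, 10.01 and 10.02 in erlotinib, against 9.44, 9.42 and 9.42 in DMSO, among pre-miR-371 arrays. Among GFP vector arrays it read 10.18, 10.14 and 10.05 in erlotinib, against 9.57, 9.47 and 9.51 in DMSO. The groups did not overlap, and the difference was 0.58 ± 0.05 in the pre-miR-371 line (adjusted p = 1.42e-06, limma) and 0.61 ± 0.05 in the GFP vector line (adjusted p = 8e-07, limma). These sizes lie on both sides of the 1.5-fold limit, so that OCLN was called in the GFP vector line alone, and without the first erlotinib array of that line it fell below the limit there too (3 members called). The 3 other OCLN probe sets were called in both lines, with changes of 0.59 to 1.00 in the pre-miR-371 line and 0.60 to 1.26 in the GFP vector line.

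**Figure D2:**
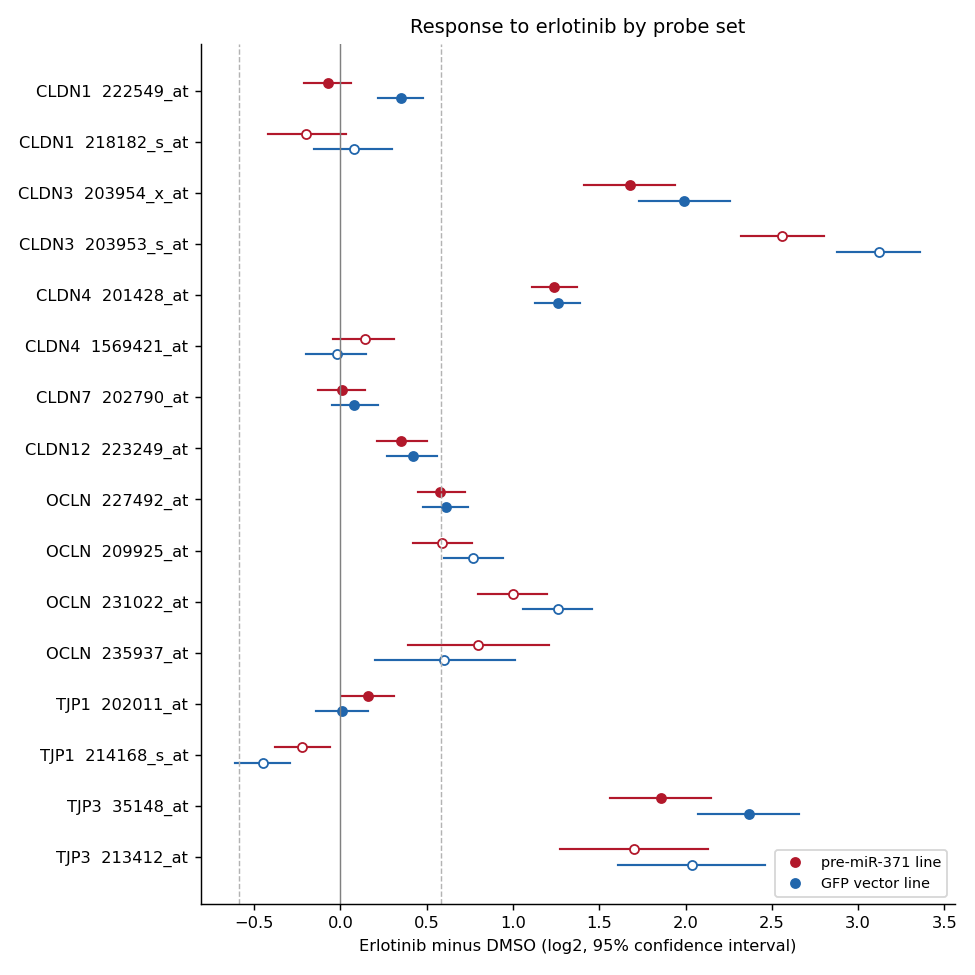
Erlotinib minus DMSO (log2, horizontal axis, with 95% confidence intervals from the fit over all probe sets) for the 16 probe sets of 8 tight junction genes, in the pre-miR-371 line (upper mark) and the GFP vector line (lower mark); filled marks are the main probe set of a gene and dashed lines the 1.5-fold limit. All probe sets of CLDN3, OCLN and TJP3 lie right of 0 in both lines, whereas the pairs of CLDN4 and TJP1 differ, with TJP1 214168_s_at at -0.22 and -0.45.

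Of the zonula occludens genes, TJP3 rose in both lines and TJP1 passed in neither. TJP3, which encodes ZO-3, a scaffold largely restricted to epithelia, read 7.82, 7.74 and 7.31 in erlotinib, against 5.95, 5.64 and 5.71 in DMSO, among pre-miR-371 arrays. In GFP vector cells it read 8.05, 8.17 and 8.0 in erlotinib, against 5.92, 5.57 and 5.62 in DMSO. All 6 treated arrays lay well above the 6 DMSO arrays, where TJP3 was dim. It rose by 1.86 ± 0.14 in the pre-miR-371 line (3.62-fold, adjusted p = 2.14e-07, limma) and by 2.37 ± 0.14 in the GFP vector line (5.16-fold, adjusted p = 1.84e-08, limma). The second TJP3 probe set (213412_at) gave 1.7 in the pre-miR-371 line and 2.04 in the GFP vector line.

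TJP1, which encodes ZO-1, the scaffold found in most epithelia and also at other cell contacts, read 10.15, 10.04 and 10.02 in erlotinib, against 9.95, 9.93 and 9.85 in DMSO, among pre-miR-371 arrays. In the GFP vector line it read 9.95, 9.95 and 9.88 in erlotinib, against 9.83, 9.99 and 9.93 in DMSO. The groups did not overlap in the pre-miR-371 line, where the difference was 0.16 ± 0.06 and narrowly missed the threshold (adjusted p = 0.0502, limma). They overlapped in the GFP vector line, where it was 0.01 ± 0.06 (adjusted p = 0.919, limma). The second TJP1 probe set (214168_s_at) went the other way and passed as lower in both lines, by -0.22 in the pre-miR-371 line and -0.45 in the GFP vector line (adjusted p = 0.0286 and 0.000202, limma over all probe sets). The group means of this second probe set were 6.38 to 6.83, and its suffix marks probes that can also match other transcripts. The direction of TJP1 is therefore not settled by these arrays, and which transcripts each probe set reads was not analysed here.

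Across the 12 arrays the called genes ran close together. Pearson's r was 0.987 between CLDN3 and CLDN4, 0.982 between CLDN3 and TJP3 and 0.981 between OCLN and TJP3, whereas it was -0.176 between CLDN1 and TJP1. CLDN12, which was not called, also ran with them, at r = 0.928 with CLDN3, 0.936 with CLDN4, 0.886 with TJP3 and 0.879 with OCLN. These values describe arrays that share the split by treatment. Among the 9650 genes with a mean of at least 6, the genes most like CLDN4 over the 12 arrays were CCNG2 (r = 0.999), CES2 (r = 0.998) and YPEL2 (r = 0.998). Those most like CLDN3 were KANSL1 (r = 0.997), DIPK1B (r = 0.996) and KLK10 (r = 0.994). Those most like TJP3 were ZFYVE26 (r = 0.998), PSENEN (r = 0.997) and CREB3L4 (r = 0.997).

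The promoters of the 4 genes that were called are printed because the genes moved together under erlotinib. Each is 250 bases before to 50 after a RefSeq start site on GRCh38.p14, and the windows lie at chr7:73770221-73770520 (CLDN3, minus strand), chr7:73830746-73831045 (CLDN4, plus strand), chr5:69492297-69492596 (OCLN, plus strand, the first of its 2 windows) and chr19:3721487-3721786 (TJP3, plus strand, the second of its 2 windows). Capitals mark matches on either strand to any of the motifs searched: the E-box CACCTG, the grainyhead-type AACCNGTT, the AP-1 type TGANTCA and the ELF3-type AGGAAG.
CLDN3: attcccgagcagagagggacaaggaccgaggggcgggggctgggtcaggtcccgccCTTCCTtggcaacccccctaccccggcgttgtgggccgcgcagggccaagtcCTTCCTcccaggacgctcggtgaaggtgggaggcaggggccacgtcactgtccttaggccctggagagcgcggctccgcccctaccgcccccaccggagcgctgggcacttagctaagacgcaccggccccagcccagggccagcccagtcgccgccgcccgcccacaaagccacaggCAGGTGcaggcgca
CLDN4: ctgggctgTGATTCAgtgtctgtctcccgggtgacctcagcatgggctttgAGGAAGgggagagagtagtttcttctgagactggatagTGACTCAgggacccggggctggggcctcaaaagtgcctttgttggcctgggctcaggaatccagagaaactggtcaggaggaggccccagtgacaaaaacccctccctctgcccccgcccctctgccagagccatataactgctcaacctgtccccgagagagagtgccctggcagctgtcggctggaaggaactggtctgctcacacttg
OCLN: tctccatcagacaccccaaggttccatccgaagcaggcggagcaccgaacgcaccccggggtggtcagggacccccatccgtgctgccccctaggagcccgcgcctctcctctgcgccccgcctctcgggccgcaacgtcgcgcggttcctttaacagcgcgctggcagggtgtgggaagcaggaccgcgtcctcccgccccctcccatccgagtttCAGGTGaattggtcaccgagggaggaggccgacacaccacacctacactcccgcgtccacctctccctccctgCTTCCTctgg
TJP3: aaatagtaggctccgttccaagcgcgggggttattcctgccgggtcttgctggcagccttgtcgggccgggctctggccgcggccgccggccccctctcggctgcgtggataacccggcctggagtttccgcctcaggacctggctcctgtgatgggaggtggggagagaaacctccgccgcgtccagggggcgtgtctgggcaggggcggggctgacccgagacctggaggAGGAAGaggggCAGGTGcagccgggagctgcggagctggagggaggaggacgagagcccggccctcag

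An E-box CACCTG was found in the windows of CLDN3, OCLN and TJP3 shown here, and not in that of CLDN4. The first TJP3 window, not printed, held no match to any motif searched, whereas the unprinted second OCLN window held the E-box and AGGAAG. Over all 14 windows of the 8 genes, 6 windows of 5 genes held it, and 20.6% of the 35116 promoter windows of this length did. The second window of CLDN7, a gene that passed in neither line, held 5 E-boxes. AGGAAG was found in 10 windows of 7 genes, and in 33.6% of all windows. The OCLN windows overlap, and the AGGAAG match counted in each of them is the same site. The CLDN4 window held both AP-1 type matches of the set, at -242 to -236 and -161 to -155 from the start base, a motif present in 7.71% of all windows. AACCNGTT was in none of the 14 windows and in 1.73% of all. A match of letters is a description and does not show that a factor binds there.

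The second question of the design was whether the pre-miR-371 line differed from the GFP vector line. No member was called between the lines in erlotinib, in DMSO or in the difference of the erlotinib responses, where 1.24%, 0.45% and 0.799% of all genes were called in either direction (limma). At an unadjusted p below 0.05 there were 3 of 8 members in erlotinib, 2 of 8 in DMSO and 2 of 8 in the difference of responses, against 30.5%, 22.8% and 15% of all genes, so these counts lie near the background. Without the fold limit, CLDN1 and TJP3 passed as lower in the pre-miR-371 line in erlotinib, 2 of 8 where 9.46% of all genes did. In either direction, 3156 of the 19775 genes passed in erlotinib. None of the 8 passed in DMSO, where 5.25% of all genes passed in either direction. CLDN1 alone passed for the difference of responses, 1 of 8 where 0.561% of all genes passed in the same direction and 395 of the 19775 genes in either direction.

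**Figure D3:**
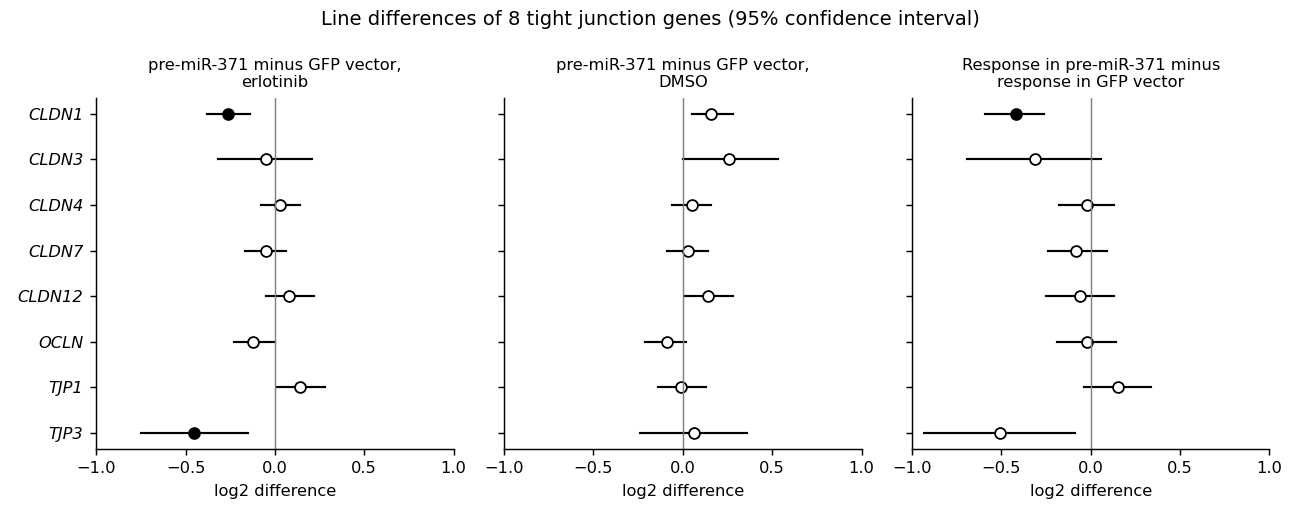
Differences (log2, horizontal axes, with 95% confidence intervals) of 8 tight junction genes between the pre-miR-371 and GFP vector lines in erlotinib and in DMSO, and the difference of the erlotinib responses; filled circles passed at an adjusted p below 0.05. CLDN1 at -0.26 and TJP3 at -0.45 are filled in erlotinib, and CLDN1 at -0.42 in the difference of responses.

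Under erlotinib, CLDN1 was lower in pre-miR-371 cells than in GFP vector cells, by -0.26 ± 0.05 (adjusted p = 0.00757, limma). With the mean of both probe sets it was -0.20 and missed the threshold (adjusted p = 0.066). In DMSO the difference was 0.16 ± 0.05 the other way and did not pass (adjusted p = 0.1, limma). Arrays of the 2 lines lay apart under both conditions. From low to high, the group means were 8.62 for GFP vector in DMSO, 8.71 for pre-miR-371 in erlotinib, 8.79 for pre-miR-371 in DMSO and 8.97 for GFP vector in erlotinib, of which the pre-miR-371 groups did not differ by the test. The response in the pre-miR-371 line minus that in the GFP vector line was -0.42 ± 0.08 (95% confidence interval -0.59 to -0.26, adjusted p = 0.016, limma). It no longer passed without the second DMSO array of pre-miR-371 cells (-0.41, adjusted p = 0.0517), with each array centred on its median (-0.39, adjusted p = 0.058) or with the mean of both probe sets (-0.35, adjusted p = 0.0901).

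TJP3 was lower in the pre-miR-371 line in erlotinib by -0.45 ± 0.14 (adjusted p = 0.045, limma), and the 3 arrays of each line did not overlap. The third erlotinib array of the pre-miR-371 line, at 7.31, was the lowest, and without it the difference was -0.29 (adjusted p = 0.158). Leaving out each of the 12 arrays in turn ended the pass in 9 cases, so that this difference sits at the threshold. The difference of responses, -0.51 ± 0.19 (95% confidence interval -0.93 to -0.09), did not pass (adjusted p = 0.234, limma).

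For the other members the intervals bound what the lines could differ by. In the difference of responses they ran from -0.18 to 0.13 for CLDN4, -0.19 to 0.14 for OCLN, -0.25 to 0.13 for CLDN12, -0.24 to 0.09 for CLDN7, -0.04 to 0.34 for TJP1 and -0.69 to 0.06 for CLDN3. The CLDN3 interval is the widest of these. With the second CLDN3 probe set (203953_s_at) the difference of responses was -0.55 (-0.89 to -0.22) and did not pass (adjusted p = 0.137, limma over all probe sets). The dim second CLDN4 probe set (1569421_at) was higher in the pre-miR-371 line in erlotinib by 0.35 (adjusted p = 0.0169), and a second OCLN probe set (231022_at) was lower by -0.38 (adjusted p = 0.024), neither of which the main probe set showed (0.03 for CLDN4 and -0.12 for OCLN).

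Other genes of the junction and its surroundings were read from lists, described by counts. The plaque and polarity proteins held 17 measured genes of 21 listed. For the pre-miR-371 line 5 rises and 1 fall were called, and for the GFP vector line 5 rises and 2 falls, with 12.6% and 14.1% of all genes called higher and 9.33% and 11.7% called lower in these lines. CGN, which encodes the plaque protein cingulin, averaged 7.96 in erlotinib and 6.89 in DMSO in the pre-miR-371 line, and 8.01 in erlotinib and 6.87 in DMSO in the GFP vector line. It rose by 1.07 ± 0.11 in the pre-miR-371 line and 1.14 ± 0.11 in the GFP vector line (adjusted p = 2.79e-06 and 1.3e-06, limma). MAGI3, a scaffold with guanylate kinase and PDZ domains, rose by 1.33 in the pre-miR-371 line and 0.92 in the GFP vector line, and PATJ, a member of the Crumbs polarity complex, by 1.28 and 1.05 in these lines. AMOT, which encodes angiomotin, rose by 1.61 and 1.42 in these lines and was dim. YBX3, the ZO-1-associated Y-box factor, fell by 0.73 in the pre-miR-371 line and by 0.80 in the GFP vector line.

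PARD6B, a polarity adaptor of the PAR complex, was the 1 gene of these lists called between the lines under both conditions. Over all genes 1.24% were called between the lines in erlotinib and 0.45% in DMSO. PARD6B was higher in the pre-miR-371 line by 0.67 ± 0.13 in erlotinib and by 0.59 ± 0.13 in DMSO (adjusted p = 0.0055 and 0.0265, limma). The size in DMSO lay barely above the 1.5-fold limit. In erlotinib PARD6B rose by 0.84 in the pre-miR-371 line and 0.76 in the GFP vector line. PARD3, its partner, was called lower in the GFP vector line (-0.72) and passed below the fold limit in the pre-miR-371 line (-0.37).

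For erlotinib, 1 of the 15 other claudins was called higher in the pre-miR-371 line and 0 in the GFP vector line. Of the 9 other membrane proteins 1 was called higher in each line. Over all genes 12.6% and 14.1% were called higher in these lines. No gene of the 2 lists was called lower, where 9.33% and 11.7% of all genes were. Of the claudins 2 had a mean of at least 6, CLDN15 and CLDN19, so most of the family outside the set was dim. CLDN15 rose in both lines below the fold limit, by 0.31 in the pre-miR-371 line and 0.38 in the GFP vector line (adjusted p = 0.0279 and 0.0078, limma). Of these 15 claudins CLDN23 was the 1 called for erlotinib, higher by 0.62 ± 0.09 in the pre-miR-371 line (5.81 in erlotinib and 5.20 in DMSO, adjusted p = 5.63e-05, limma), while it rose by 0.29 in the GFP vector line, below the fold limit. CLDN2, a channel-forming claudin, was the 1 called between the lines, higher in pre-miR-371 cells in DMSO by 0.60 (adjusted p = 0.0346, limma), at dim means of 3.90 in the pre-miR-371 line and 3.29 in the GFP vector line. Over all genes 0.45% were called between the lines in DMSO. Of the membrane proteins, ILDR1, an angulin of tricellular contacts, was called higher by 1.19 in the pre-miR-371 line and 1.29 in the GFP vector line and was dim.

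**Figure D4:**
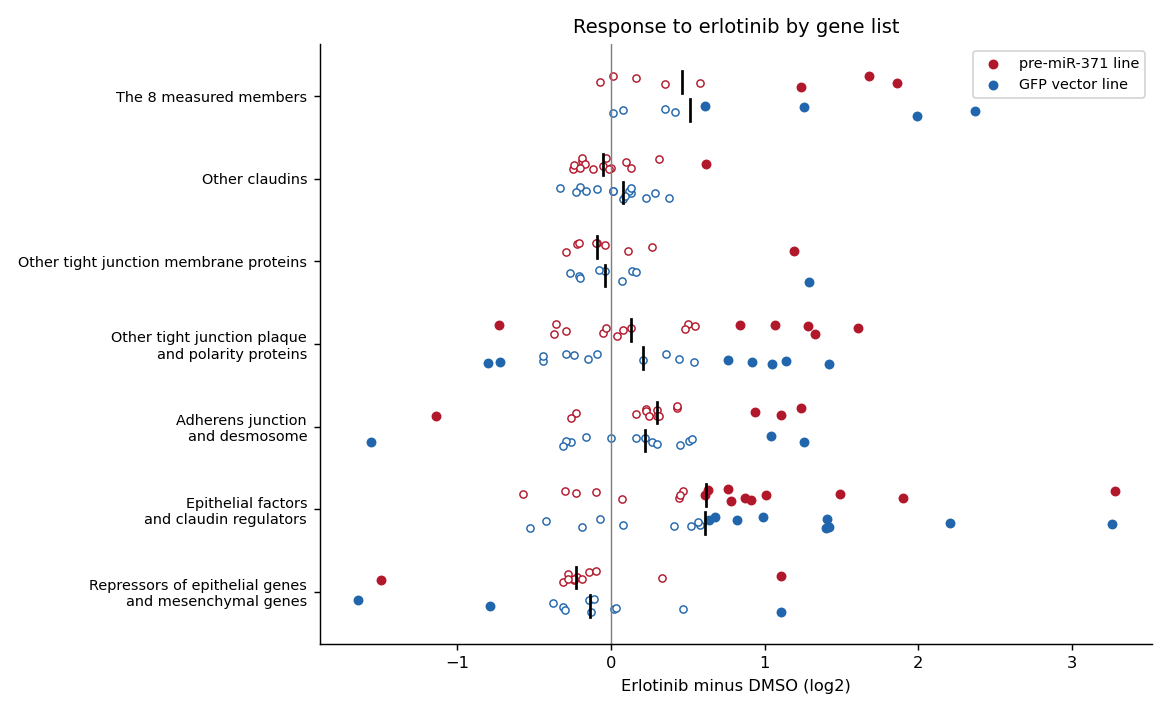
Erlotinib minus DMSO (log2, horizontal axis) for the genes of 7 lists in the pre-miR-371 line (upper row of each list) and the GFP vector line (lower row); filled points were called at an adjusted p below 0.05 and more than 1.5-fold, and black bars are list medians. The 8 tight junction genes have medians of 0.47 and 0.51 and the epithelial factors 0.62 and 0.61, whereas the other claudins have 1 filled point, CLDN23 at 0.62 in the pre-miR-371 line.

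Among the 15 measured adherens junction and desmosome genes, 3 rises and 1 fall were called in the pre-miR-371 line, and 2 rises and 1 fall in the GFP vector line. These counts lie near the shares of all genes called higher (12.6% and 14.1% in these lines) and lower (9.33% and 11.7%). JUP, which encodes plakoglobin, shared by both kinds of junction, rose by 1.24 ± 0.06 in the pre-miR-371 line and 1.26 ± 0.06 in the GFP vector line. NECTIN4 rose by 0.94 and 1.04 in these lines and was dim, as was NECTIN3, which was called in the pre-miR-371 line (1.11) and rose by 0.53, below the fold limit, in the GFP vector line. PKP2, a desmosomal plaque protein, fell by 1.14 in the pre-miR-371 line and by 1.56 in the GFP vector line. CDH1, which encodes E-cadherin, averaged 11.01 in erlotinib and 10.85 in DMSO in the pre-miR-371 line, and 10.71 in erlotinib and 10.87 in DMSO in the GFP vector line. It rose by 0.16 in the pre-miR-371 line and fell by 0.16 in the GFP vector line (adjusted p = 0.02 and 0.0181, limma), both below the fold limit, and the difference of these responses, 0.32 ± 0.07, passed (adjusted p = 0.0433, limma).

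Of the 18 measured epithelial factors and claudin regulators, 10 were called higher in the pre-miR-371 line and 9 in the GFP vector line, where 12.6% and 14.1% of all genes were. None was called lower in either, where 9.33% and 11.7% of all genes were. Without the fold limit, 13 passed as higher and 3 as lower in each line. Over all 19775 genes 24.8% and 26.5% passed as higher in these lines, and 4383 and 4618 genes as lower. The 3 were OVOL1 (-0.57 in the pre-miR-371 line and -0.53 in the GFP vector line), MAL2 (-0.30 and -0.42) and EPCAM (-0.23 and -0.19). The list's median change was 0.62 in the pre-miR-371 line and 0.61 in the GFP vector line. ELF3, an epithelial ETS factor, averaged 10.57 in erlotinib and 7.29 in DMSO in the pre-miR-371 line, and 10.66 in erlotinib and 7.40 in DMSO in the GFP vector line, which gave changes of 3.28 ± 0.07 and 3.26 ± 0.07 (adjusted p = 1.07e-11 and 6.38e-12, limma). GRHL2, a grainyhead factor known to activate CLDN4 in mouse epithelia, rose by 0.87 in the pre-miR-371 line and 0.64 in the GFP vector line, and its dim relative GRHL3 by 1.90 and 2.21 in these lines. KLF5 rose by 1.49 and 1.40 in these lines, the tetraspanin CD9 by 0.91 and 0.99, and the protease inhibitor SPINT1 by 1.01 and 1.41. Their part in the tight junction result was not tested.

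Of the 12 repressors and mesenchymal genes, 4 had a mean of at least 6. SNAI2, which encodes the E-box repressor SLUG, averaged 8.23 in erlotinib and 8.47 in DMSO in the pre-miR-371 line, and 8.01 in erlotinib and 8.80 in DMSO in the GFP vector line. It fell in both, by 0.24 ± 0.06 in the pre-miR-371 line and by 0.79 ± 0.06 in the GFP vector line (adjusted p = 0.00436 and 1.82e-07, limma). VIM, which encodes vimentin, fell by 1.5 in the pre-miR-371 line and by 1.65 in the GFP vector line, whereas FN1, which encodes fibronectin, rose by 1.11 in both. SNAI1, ZEB1 and ZEB2 had dim means of 3.00 to 4.13 in the 4 groups and passed in neither line.

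The labelled cell type was checked against marker genes. All 7 of 7 epithelial markers had a mean of at least 6, from 10.76 for ESRP1 to 13.59 for KRT18, and their mean lay at 12.39 to 12.43 on erlotinib arrays and 12.20 to 12.27 on DMSO arrays. Of the lung lineage markers 1 of 5 reached 6 (SFTPC), of the fibroblast markers 1 of 6 (COL1A1), of the endothelial markers 1 of 5 (PECAM1) and of the leukocyte markers 0 of 5. The lung lineage markers averaged 4.99 to 5.13 on erlotinib arrays and 4.99 to 5.08 on DMSO arrays of the pre-miR-371 line, where none passed (limma, 0 at an unadjusted p below 0.05). They averaged 5.04 to 5.06 on erlotinib arrays and 4.73 to 4.99 on DMSO arrays of the GFP vector line, where SFTPC rose by 0.41 and the dim NKX2-1 by 0.30 (adjusted p = 0.0312 and 0.0196, limma). The leukocyte markers averaged 3.74 to 3.98 on erlotinib arrays and 3.45 to 3.65 on DMSO arrays, with PTPRC lowest at 2.82, and LYZ rose by 1.26 in the pre-miR-371 line and 1.37 in the GFP vector line at dim levels. The endothelial markers averaged 4.95 to 5.09 on erlotinib arrays and 4.60 to 4.74 on DMSO arrays, and 2 of the 5 rose: PECAM1 by 1.03 in the pre-miR-371 line and 1.27 in the GFP vector line, and the dim VWF by 0.52 and 0.48 in these lines. The other endothelial markers were dim and did not pass, with KDR lowest at 2.43. The part of these genes in the tight junction result was not tested. The fibroblast markers averaged 4.16 to 4.33 on erlotinib arrays and 4.19 to 4.36 on DMSO arrays, and none of the 6 passed in either line (limma, 0 at an unadjusted p below 0.05).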

How the data were processed

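RNA of 12 PC9 samples was labelled with the Affymetrix 3′ IVT Express kit, hybridized to HG-U133 Plus 2.0 arrays and summarized per probe set by the authors with RMA in the affy package (no version is given in the sources used here). The deposited values are log2 intensities after the authors' quantile normalization. No count or depth lies behind them, so precision rests on the 3 arrays of each group. RMA shrinks differences of dim probe sets, and no detection call was used.

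Of 54675 probe sets, 41097 were paired with 1 gene symbol through the platform annotation and RefSeq, 1801 with several and 11777 with none. Only the first kind was used. The probe set whose mean over 12 arrays was highest stood for each of 19775 genes, and the other probe sets of the members were tested beside it. A linear model with 1 mean per group was fitted with limma 3.58.1 in R 4.3.3 over all arrays, with 5 contrasts and Benjamini-Hochberg adjustment over all genes. Calls used the limits of the study's methods, an adjusted p below 0.05 and more than 1.5-fold. The script was tested on simulated data. Array medians were 4.31 to 4.41, and arrays of a group correlated at 0.9956 to 0.9975, with no identical pair.

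All members, with their probe sets, were named. From each other list, up to 4 called genes per comparison with the smallest adjusted p were named by rule. PATJ, PARD3, CDH1, CLDN15, CLDN19, OVOL1, MAL2, SNAI1, ZEB1 and ZEB2 were added after their values were seen. So were the values of named genes in further comparisons, the marker genes, the neighbours of CLDN3 and CLDN4 and the promoter motifs. The 3 most similar genes were taken for members whose group means spanned at least 1 log2 unit. Members and lists were chosen with earlier results of these data known. Sequences are from RefSeq on GRCh38.p14, and all 8 measured members matched the promoter table. Alternatives changed the probe set, the filter on dim genes, the arrays in the fit, the normalization, the variance model, array weights, the replicate block and the limits of a call.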

Additional observations from a re-analysis of the deposited data

Results flagged for a closer look

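The erlotinib response differed between the lines, by the test of the difference itself, for 1 of the 8 tight junction genes and 4 genes of the surrounding lists. These 4 were 2 of 15 adherens junction and desmosome genes, 1 of 18 epithelial factors and 1 of 12 repressors and mesenchymal genes. None of the other claudins, membrane proteins or plaque and polarity proteins passed. Over all 19775 genes, 395 passed in either direction. For CLDN1 the response was -0.07 in the pre-miR-371 line and 0.35 in the GFP vector line, a difference of -0.42 ± 0.08 on the log2 scale (adjusted p = 0.016, limma). The CLDN1 difference did not pass with its second probe set, the mean of both probe sets or median centring (adjusted p = 0.47, 0.0901 and 0.058, limma). For SNAI2, which encodes the repressor SLUG, the response was -0.24 in the pre-miR-371 line and -0.79 in the GFP vector line, a difference of 0.55 ± 0.08 (adjusted p = 0.00811, limma). For DSC2, a desmosomal cadherin, it was 0.31 in the pre-miR-371 line and -0.29 in the GFP vector line, a difference of 0.60 ± 0.12 (adjusted p = 0.023, limma). For PRSS8, the membrane protease prostasin, it was 0.78 in the pre-miR-371 line and 1.42 in the GFP vector line, a difference of -0.64 ± 0.13 (adjusted p = 0.0356, limma). For CDH1, which encodes E-cadherin, it was 0.16 in the pre-miR-371 line and -0.16 in the GFP vector line, a difference of 0.32 ± 0.07 (adjusted p = 0.0433, limma).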

How the results depend on the processing

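The counts of called members kept within 1.5 times their value under all alternatives except the call rule: without the fold limit, 5 members were called for erlotinib in the pre-miR-371 line, 2 between the lines in erlotinib and 1 for the difference of responses. Leaving out each array in turn gave 3 to 4 called members for erlotinib in each line and 0 throughout in the other 3 comparisons. The replicate numbers did not pair the arrays (correlation of deviations from the group means -0.06 to 0.20, and 1 of all 12 arrays closest to its own number throughout), and with the replicate block 3 members were called in the pre-miR-371 line, 4 in GFP vector cells and 0 elsewhere. Of single genes, reversals came from the choice of probe set: CLDN4 in the GFP vector line was -0.02 with 1569421_at, and TJP1 was -0.22 in the pre-miR-371 line with 214168_s_at, and -0.45 with it and -0.22 with the mean of both probe sets in the GFP vector line. A gain or loss of the threshold occurred in 16 and 21 further single-gene settings. Among them TJP1 in the pre-miR-371 line passed with quantile normalization repeated (0.22, adjusted p = 0.0127), and CLDN1 in DMSO likewise (0.24, adjusted p = 0.014). The cause was not tested. Repeated quantile normalization moved the share of higher calls over all genes to 66.7%, against 55.5% as deposited, between the lines in erlotinib, and to 62.1%, against 48.3%, in DMSO, where centring on medians gave 38.9%. Signal over background limits TJP3, CLDN3 and the dim probe sets.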
